A study of Mus musculus with 6 samples.

Results

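The distal end of mouse chromosome 16 carries a block of genes whose human counterparts lie together on chromosome 21. The genes described here were chosen by position. They are the protein-coding genes that start at or beyond base 75000000 of chromosome 16, without Cbr1, Cbr3, Sod1, Gart and the genes whose names begin with Atp5. Of 150 protein-coding genes listed there, 7 were left out by name and 143 remained, out of 54715 genes in the table. The segment was singled out because its genes were already known to be shifted in the comparison of knockout with wild type described here. The fold changes of its genes, and the direction they share, are therefore a description and not independent evidence.

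The cells were advanced embryonic stem cells (ASCs), a pluripotent mouse cell type between the naïve and the primed state, derived from a 129/sv female mated with a GOF/GFP male. GOF/GFP is a fluorescent reporter of Oct4. Wild type (WT) and knockout (KO) ASCs carried the same reporter background and, by the study's methods, were grown in the same medium, which contained leukemia inhibitory factor, BMP4, Activin A and the GSK3 inhibitor CHIR99021. KO ASCs carried a bi-allelic CRISPR/Cas9 deletion in Bdh2, a short-chain dehydrogenase linked to iron handling, and the ASC line taken further by the study was a single clone. There were 3 libraries of each genotype, named WT ASC and KO ASC replicates 1 to 3, and the labels do not say whether the replicates were separate cultures. All p-values then measure the spread between these libraries, and the knockout cannot be told apart from other differences between a clone and its parental cells.

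Trisomy of human chromosome 21 causes Down syndrome, and mice with an extra copy of distal chromosome 16 are a widely used model of it. In such models most genes in the extra segment are transcribed in proportion to their copy number, so that 3 copies in place of 2 would give a 1.5-fold level in every cell. The segment holds transcription factors such as Runx1, Ets2, Gabpa and Bach1, the kinase Dyrk1a and its fellow regulator of calcineurin signaling Rcan1, the amyloid precursor protein App, the interferon receptor subunits, and a large cluster of hair keratin-associated proteins. The libraries measured RNA. DNA copy number was not measured in them, and neither copy number nor any other source of the differences below was tested. The study shows a karyotype and a distribution of chromosome numbers for its KO ASCs. Its text states no chromosome counts, and those figures were not used here.

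The libraries held 18927748 to 28333541 counts on genes, so that 3 counts corresponded to 0.106 to 0.158 CPM (counts scaled to library size), with counting error only. The targeted gene, Bdh2, stood at 10.5, 9.56 and 8.27 normalized CPM in the WT ASC libraries and at 5.95, 4.99 and 5.38 in the KO ASC libraries. The genotypes did not overlap, and the log2 fold change was -0.79 ± 0.12 (SE, edgeR, adjusted p = 2.58e-04). The markers of pluripotent cells summed to 7623 to 7647 CPM in WT ASCs and 7318 to 7478 in KO ASCs, with none of the 10 at 0 in all libraries. Those of primitive endoderm summed to 124.7 to 130.2 CPM in WT ASCs and 372.0 to 424.3 in KO ASCs (9 of 9 detected). Those of hepatocytes, a cell type not grown here, summed to 535, 324 and 51.8 CPM in the WT ASC libraries and to 41.2, 149 and 29.2 in the KO ASC libraries, with Alb, the albumin gene, at 339, 201, 22.3, 16.8, 86.5 and 8.55 CPM. WT ASC replicates 1 and 2, and at a lower level KO ASC replicate 2, thus held more hepatocyte transcripts than the other 3 libraries. Fibroblast markers summed to 32.2 to 36.2 CPM in WT ASCs and 22.9 to 28.2 in KO ASCs, and blood cell markers to 8.54 to 11.8 and 12.8 to 14.3. Nearly all of the blood cell sum was Cd68, at 8.26 to 10.95 CPM in WT ASCs and 12.07 to 13.76 in KO ASCs. Ptprc, Hba-a1, Hbb-bs and Csf1r were under 1 CPM in every library, and only 1 of the 5 blood cell markers was high enough to be tested. The part of these transcripts in the results below was not tested beyond the values given with them.

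To show what kind of promoter stands before these genes, the sequence upstream of the RefSeq start (GRCm38.p6) is given for 4 genes of the segment that rose in KO ASCs. They are Cct8, the gene of highest level per length, Hmgn1, Bach1, and Adamts1, whose level was more than 2-fold higher. These 4 were also taken because their listed starts leave no transcribed bases of the gene itself in the window. Each run has 240 bases and ends 11 bases before the start. It lies on the minus strand at chr16:87495880-87496119 for Cct8 and chr16:96127736-96127975 for Hmgn1, on the plus strand at chr16:87698704-87698943 for Bach1, and on the minus strand at chr16:85803124-85803363 for Adamts1. Capitals mark every match, on either strand, to the GC box GGGCGG, the ETS motif CCGGAAG, the CCAAT motif and the TATA motif TATAAA.
Cct8: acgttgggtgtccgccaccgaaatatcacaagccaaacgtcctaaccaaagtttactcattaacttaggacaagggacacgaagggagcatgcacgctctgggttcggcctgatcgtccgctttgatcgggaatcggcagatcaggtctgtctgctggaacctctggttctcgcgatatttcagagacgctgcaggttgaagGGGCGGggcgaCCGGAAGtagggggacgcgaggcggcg
Hmgn1: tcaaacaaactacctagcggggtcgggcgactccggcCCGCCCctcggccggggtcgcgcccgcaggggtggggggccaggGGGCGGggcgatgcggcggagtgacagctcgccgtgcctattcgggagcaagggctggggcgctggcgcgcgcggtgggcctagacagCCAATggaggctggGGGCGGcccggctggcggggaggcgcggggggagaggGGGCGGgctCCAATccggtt
Bach1: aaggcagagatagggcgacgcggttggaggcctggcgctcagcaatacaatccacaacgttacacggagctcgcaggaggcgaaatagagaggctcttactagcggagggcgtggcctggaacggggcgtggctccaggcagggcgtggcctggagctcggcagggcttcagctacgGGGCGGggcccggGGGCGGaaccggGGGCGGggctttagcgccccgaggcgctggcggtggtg
Adamts1: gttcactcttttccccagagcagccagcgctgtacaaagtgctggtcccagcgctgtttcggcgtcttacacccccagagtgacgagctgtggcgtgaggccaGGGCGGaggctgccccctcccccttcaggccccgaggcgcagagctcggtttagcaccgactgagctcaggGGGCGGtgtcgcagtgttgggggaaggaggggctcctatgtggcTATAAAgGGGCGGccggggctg

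The Cct8 window holds 1 ETS match and 1 GC box among 21 CpG dinucleotides. The Hmgn1 window, with 76.7% G and C, holds 4 GC boxes and 2 CCAAT matches, and the Bach1 window holds 3 GC boxes. The Adamts1 window holds a TATA match and 3 GC boxes. The TATA match and a GC box lie close together there, and no match overlaps another in these 4 windows. RefSeq promoters were found for 57 of the 70 tested genes of the segment (72 promoters, since some genes have several). Their windows had a median of 22 CpG, against 14 over the 14687 promoters of all tested genes. A GC box stood in 58.3% of them and in 53.9% of the promoters of all tested genes, a TATA match in 2.78% and 6.43%, an ETS match in 12.5% and 11.1%, and a CCAAT match in 30.6% and 34.6%. Over all 32851 promoters in the table, whether or not the gene was tested, the shares were 31.3%, 12.1%, 6.20% and 33.0%. Within the segment, the 38 promoters of genes called higher and the 34 of the other genes held an ETS match in 15.8% and 8.82%, a GC box in 52.6% and 64.7%, a CCAAT match in 28.9% and 32.4%, and a TATA match in 2.63% and 2.94%. These are matches of letters in a window and say nothing about binding.

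Of the 143 genes, 70 had at least 10 counts in at least 3 libraries and were fitted together with all other such genes (16870 in all). None of the 70 passed this filter through the libraries of 1 genotype alone. The other 73 were low throughout, with no more than 16 counts in any library and no more than 55 over the 6 libraries, the latter for Rbm11. Among them 45 had no read in any library, including 22 of 24 keratin-associated protein genes (Krtap), which serve hair. Olig2 and Sim2, transcription factors of the nervous system, had 12 and 20 counts in all, and Erg, a transcription factor of endothelium, had 20. Mx1, an interferon-induced GTPase, had 8. Fitted with no filter on low counts, 28 of the 73 could be tested, and none was called or reached an unadjusted p under 0.05 (edgeR). The other 45 had no counts.

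Of the 70 tested genes, 40 were called higher in KO ASCs and 4 lower (edgeR quasi-likelihood test, adjusted p under 0.05 with the Benjamini-Hochberg method over all tested genes). These are 57.1% and 5.71% of the segment. Over all tested genes, 41.4% were called in either direction, 20.9% higher and 20.5% lower. Because the segment was picked on this contrast, nothing further is read from that gap. The log2 fold change was above 0 for 60 of the 70 genes. Its median was 0.28, a 1.21-fold level, with lower and upper quartiles of 0.11 and 0.47. The median over all tested genes was -0.01 on the same scale. All 3 KO ASC libraries lay above all 3 WT ASC libraries for 44 of the 70 genes and below them for 5. The shares over all tested genes were 26.2% and 25.9%. Each of the 44 called genes had genotypes that did not overlap. Of the 40 called higher, 35 kept the call in each of the 6 fits with 1 library left out. With 3 libraries against 3, the smallest p of an exact two-sided permutation test of 1 gene is 0.1, so single genes rest on the fit across all genes.

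**Figure D1:**
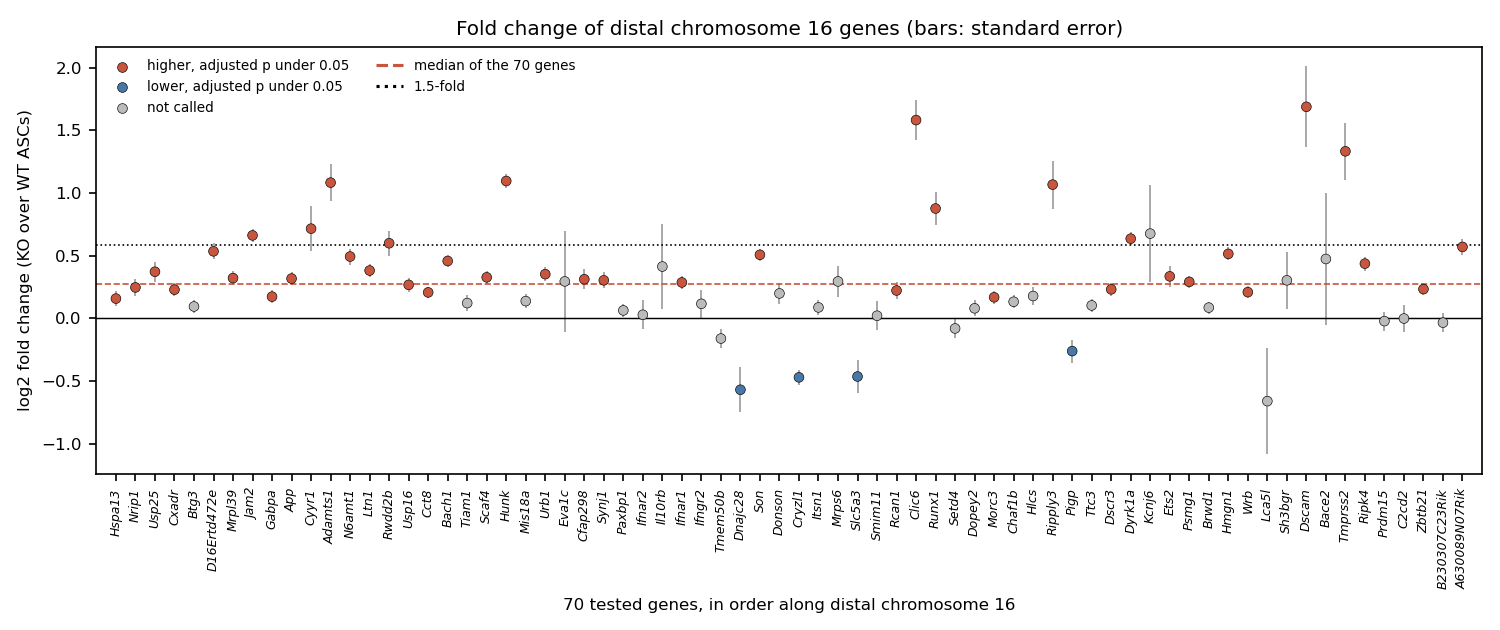
The log2 fold change (vertical axis, KO over WT ASCs) of the 70 tested genes is shown in their order along distal chromosome 16, with bars for the standard error. The 40 genes called higher are red, the 4 called lower blue and the 26 not called grey, the dashed line marks the median of 0.28, and 12 genes lie above the dotted line at 1.5-fold.

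Most changes were small. Of the 60 genes with a positive fold change, 48 stayed under 1.5-fold and 12 reached it. These 12 are 17.1% of the segment, where 6.72% of all tested genes and 11.9% of the rest of chromosome 16 reached 1.5-fold. Among the 40 genes called higher, 29 were under 1.5-fold and 11 at or above it, of which 6 at least doubled. The 52 genes with a mean of at least 10 CPM had a median log2 fold change of 0.23, with 33 called higher, 3 lower and 4 at 1.5-fold or more. The 18 genes below 10 CPM had a median of 0.44, with 7 called higher, 1 lower and 8 at 1.5-fold or more. Low genes carry larger errors, and the difference between the groups was not tested. No matched share was taken for genes below 10 CPM. Off chromosome 16, the median over 8733 protein-coding genes with at least 10 CPM was 0.02, with 28.0% called higher and 22.7% lower. Of these, 2.47% were at 1.5-fold or more, against 7.69% of the 52 segment genes.

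The shift was present in every KO ASC library. Each gene was set against its own mean over the WT ASC libraries, as log2(CPM + 0.5), and the median over the 70 genes was taken per library. It was 0.24, 0.26 and 0.22 in KO ASC replicates 1 to 3 and -0.00094, 0.0060 and 0.0020 in WT ASC replicates 1 to 3. In each KO ASC library 60 of the 70 genes lay above their WT mean. The summed counts of the 70 genes made up 0.432%, 0.423% and 0.428% of the counts in the WT ASC libraries and 0.510%, 0.505% and 0.510% in the KO ASC libraries. The values of the KO ASC libraries did not overlap with those of the WT ASC libraries. In bulk RNA, a level raised in every cell and a larger rise in some of the cells cannot be told apart.

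**Figure D2:**
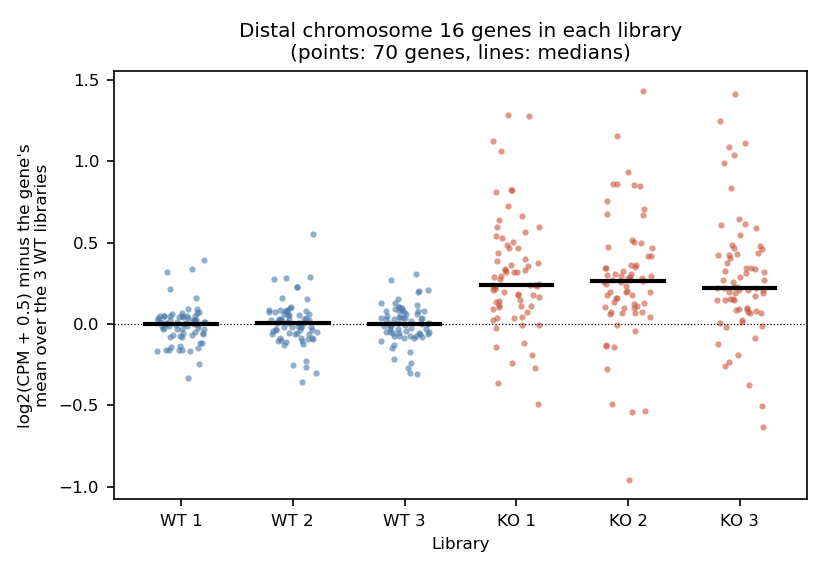
Each point is 1 of the 70 genes in 1 library, plotted as log2(CPM + 0.5) minus the mean of that gene over the 3 WT ASC libraries (vertical axis), and black lines are medians. The medians of the 3 KO ASC libraries are 0.24, 0.26 and 0.22 and those of the WT ASC libraries lie at 0.

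With a score of hepatocyte transcripts as a covariate in the fit, 33 of the 70 genes were called higher and 2 lower, with a median of 0.23. With WT ASC replicate 3 alone against the KO ASC libraries, where the lone WT library is assumed to vary like the others, 34 were called higher and 1 lower, with a median of 0.24. With KO ASC replicate 2 left out as well, which leaves the 3 libraries with the fewest hepatocyte transcripts, 38 were called higher and 1 lower, with a median of 0.24. These 3 settings were added after the data were seen. In each, most genes of the segment that were called were higher in KO ASCs. Shares over all tested genes were taken only for the fit as reported above (20.9% higher and 20.5% lower). Primitive endoderm markers separated the genotypes as the segment did, and their part in it was not tested.

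The transcription factors and cofactors of the segment included 9 tested genes, of which 7 rose, none fell and 2 were not called, with log2 fold changes from -0.02 to 1.07 and a median of 0.25. The shares over all tested genes were 20.9% higher and 20.5% lower, and since the segment was picked on this contrast, no role list is read against them as evidence. Runx1, the master regulator of blood formation, stood at 4.02, 5.99 and 4.75 CPM in WT ASCs and at 8.89, 9.17 and 9.05 in KO ASCs. All 3 KO ASC libraries lay above the WT ASC libraries, and the KO ASC values were closer together (log2 fold change 0.88 ± 0.13, SE, adjusted p = 2.35e-04). Bach1, a repressor of heme-responsive and antioxidant genes, went from 62.9, 61.6 and 65.2 CPM to 85.6, 89.5 and 85.5. This is a log2 change of 0.46 ± 0.051 with every KO ASC library above 85 CPM and every WT ASC library below 66 (adjusted p = 1.94e-05).

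Ripply3, a transcriptional co-repressor of pharyngeal development, was low, at 1.39, 1.98 and 1.54 CPM in WT ASCs and 3.27, 3.34 and 3.71 in KO ASCs, a log2 fold change of 1.07 ± 0.19 with no overlap. Ets2, an ETS family factor, had 18.5, 19.9 and 24.0 CPM in WT ASCs and 26.5, 25.5 and 27.0 in KO ASCs (log2 fold change 0.34 ± 0.086). WT ASC replicate 3 lay closest to the KO ASC libraries. Ets2 was no longer called with the hepatocyte covariate (adjusted p = 0.127), with WT ASC replicate 3 alone (adjusted p = 0.251) or with KO ASC replicate 2 left out as well (adjusted p = 0.167). Gabpa, the DNA-binding subunit of GA-binding protein, which drives genes of mitochondria, had 135.8, 145.1 and 145.1 CPM in WT ASCs and 167.4, 154.8 and 158.2 in KO ASCs (log2 fold change 0.17 ± 0.052). The Gabpa groups did not overlap, but their nearest values differed by under 10 CPM. Its call was lost with the hepatocyte covariate (adjusted p = 0.158), without KO ASC replicate 1 (adjusted p = 0.0721) and without WT ASC replicate 1 (adjusted p = 0.0592), with library totals (adjusted p = 0.0803) and with WT ASC replicate 3 alone (adjusted p = 0.0945). Nrip1, a nuclear receptor corepressor, was called at a log2 fold change of 0.25 ± 0.070, and the call was likewise lost with the covariate (adjusted p = 0.122), with WT ASC replicate 3 alone (adjusted p = 0.0988) and without KO ASC replicate 1 (adjusted p = 0.0602) or WT ASC replicate 1 (adjusted p = 0.0538).

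The signaling genes included 9 tested genes, of which 5 rose and none fell, with log2 fold changes from 0.09 to 1.10 and a median of 0.30 (all tested genes, 20.9% higher and 20.5% lower). Dyrk1a, a kinase known for its dosage sensitivity in brain development, was at 64.9, 69.7 and 69.6 CPM in WT ASCs and at 106.0, 108.7 and 102.6 in KO ASCs. The gap between the genotypes was several times the range within each, and the level was 1.55-fold (log2 fold change 0.64 ± 0.053, adjusted p = 1.93e-06). Hunk, a kinase of the AMPK-related family, was at 31.2, 28.5 and 32.4 CPM in WT ASCs and at 64.7, 68.8 and 63.6 in KO ASCs. Every KO ASC library had nearly or more than double every WT ASC value (log2 fold change 1.10 ± 0.060, adjusted p = 5.26e-08). Rcan1, an inhibitor of the phosphatase calcineurin, was at 25.6, 24.2 and 27.8 CPM in WT ASCs and at 29.6, 32.4 and 28.6 in KO ASCs. The groups came within 1 CPM of each other (log2 fold change 0.22 ± 0.070, adjusted p = 0.0224). The Rcan1 call was lost without WT ASC replicate 1 (adjusted p = 0.0586), WT ASC replicate 2 (adjusted p = 0.0830) or KO ASC replicate 2 (adjusted p = 0.104), with the covariate (adjusted p = 0.0838) and with library totals in place of TMM (adjusted p = 0.0723). With WT ASC replicate 3 alone the Rcan1 change was 0.12 (adjusted p = 0.341), and 0.07 when KO ASC replicate 2 was left out as well (adjusted p = 0.563).

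Of 11 tested membrane, adhesion and matrix genes, 7 rose and 1 fell, with log2 fold changes from -0.26 to 1.69 and a median of 0.47 (all tested genes, 20.9% higher and 20.5% lower). Jam2, a junctional adhesion molecule, was at 104.4, 113.4 and 102.6 CPM in WT ASCs and at 169.4, 170.2 and 167.2 in KO ASCs. The KO ASC values were within 3 CPM of each other and far above the WT ASC values, at 1.58-fold (log2 fold change 0.66 ± 0.052, adjusted p = 1.27e-06). App, the precursor of the amyloid beta peptide, was at 40.8, 44.6 and 43.5 CPM in WT ASCs and at 53.6, 53.2 and 53.8 in KO ASCs. The groups were clearly apart, at 1.25-fold (log2 fold change 0.32 ± 0.051, adjusted p = 3.50e-04).

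Adamts1, a secreted metalloprotease that cleaves proteoglycans, was at 5.46, 6.64 and 4.24 CPM in WT ASCs and at 12.3, 10.2 and 11.9 in KO ASCs (log2 fold change 1.08 ± 0.14). Cyyr1, a small membrane protein, was at 2.27, 2.28 and 3.17 CPM in WT ASCs and 4.54, 4.47 and 3.76 in KO ASCs (log2 fold change 0.72 ± 0.18), and with WT ASC replicate 3 alone its adjusted p was 0.164, and 0.225 without KO ASC replicate 2 as well. Tmprss2, a transmembrane serine protease, was at 1.39, 0.941 and 1.54 CPM in WT ASCs and 3.81, 2.71 and 3.34 in KO ASCs (log2 fold change 1.33 ± 0.23). Dscam, an adhesion molecule of neurons, had the largest fold change of the segment, on few reads, with 0.309, 0.495 and 0.396 CPM in WT ASCs and 1.09, 1.21 and 1.63 in KO ASCs (log2 fold change 1.69 ± 0.32). In all 4 genes the lowest KO ASC library lay above the highest WT ASC library, at low counts. The ion channel and transporter group had 3 tested genes, of which Clic6 rose, Slc5a3 fell and 1 was not called (all tested genes, 20.9% higher and 20.5% lower). Clic6, a chloride intracellular channel protein, went from 1.75, 2.23 and 1.86 CPM to 5.41, 6.09 and 6.01, without overlap (log2 fold change 1.58 ± 0.16, adjusted p = 7.80e-06).

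**Figure D3:**
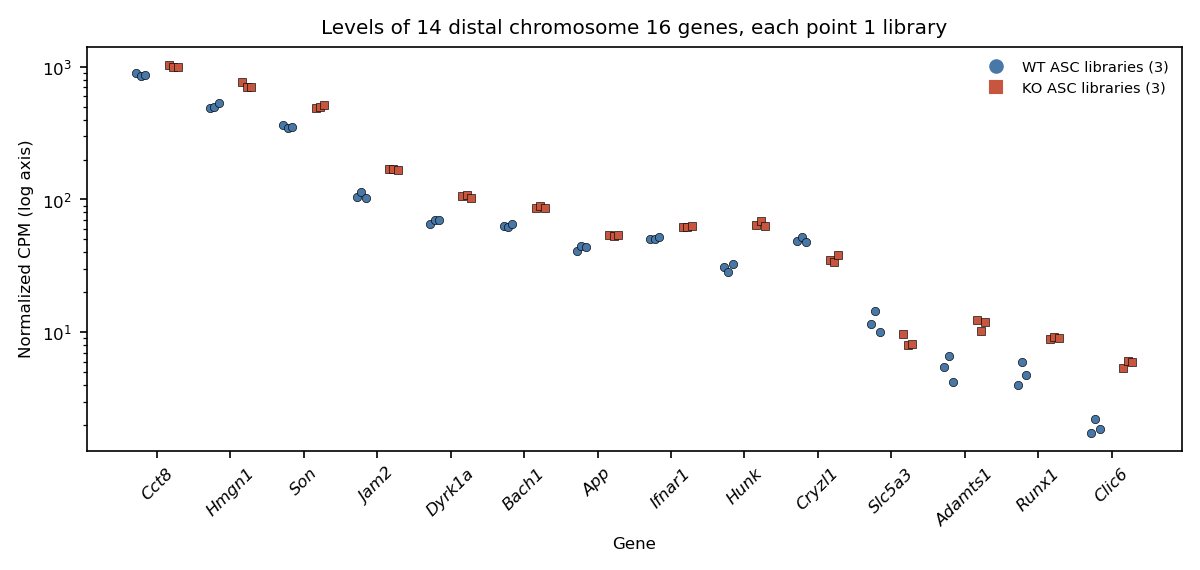
Normalized CPM (vertical log axis) of 14 genes of the segment is plotted, with 1 point per library, blue circles for the 3 WT ASC and red squares for the 3 KO ASC libraries. The KO ASC libraries lie above for 12 genes and below for Cryzl1 and Slc5a3, and in no gene do the genotypes overlap.

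Of 10 tested genes of protein folding and turnover, 8 rose and 1, Dnajc28, fell, with log2 fold changes from -0.57 to 0.38 and a median of 0.22 (all tested genes, 20.9% higher and 20.5% lower). The 8 include Hspa13, a chaperone of the Hsp70 family, whose call was lost in 13 of 19 alternatives. Cct8, a subunit of the cytosolic chaperonin that folds actin and tubulin, had the highest level of the segment per length, a mean of 305.0 FPKM. It was at 904, 854 and 865 CPM in WT ASCs and at 1024, 1003 and 1001 in KO ASCs, without overlap (log2 fold change 0.21 ± 0.043, adjusted p = 0.00204). Psmg1, which helps to assemble the proteasome, was at 67.1, 69.8 and 68.8 CPM in WT ASCs and at 86.9, 82.0 and 82.8 in KO ASCs (log2 fold change 0.29 ± 0.050). Usp16, a deubiquitinase of histone H2A, was at 43.1, 44.98 and 40.3 CPM in WT ASCs and at 50.8, 52.1 and 51.3 in KO ASCs (log2 fold change 0.27 ± 0.054). Ltn1, the ubiquitin ligase that clears stalled nascent chains from ribosomes, was at 83.3, 76.3 and 83.3 CPM in WT ASCs and at 105.2, 102.7 and 108.5 in KO ASCs (log2 fold change 0.38 ± 0.054). Genotypes were apart in all 3, at 1.224-, 1.203- and 1.303-fold. Usp16 and Cct8 overlap at their ends on opposite strands, over 6.22% of the exon bases of Cct8, and the strand setting of the counting is not given in the sources used here.

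RNA processing and mitochondrial ribosome genes gave 4 rises among 5 tested genes and no fall, with log2 fold changes from 0.29 to 0.51 and a median of 0.33 (all tested genes, 20.9% higher and 20.5% lower). Son, a large splicing cofactor, was at 364, 344 and 349 CPM in WT ASCs and at 487, 500.5 and 515 in KO ASCs. The lowest KO ASC value was over 100 CPM above the highest WT ASC value (log2 fold change 0.51 ± 0.047, adjusted p = 4.32e-06). Scaf4, which acts on transcription termination, was at 101.8, 97.8 and 106.6 CPM in WT ASCs and at 128.4, 131.3 and 124.5 in KO ASCs (log2 fold change 0.33 ± 0.052). Urb1, a ribosome biogenesis factor, was at 110.5, 102.4 and 115.7 CPM in WT ASCs and at 134.5, 146.0 and 139.2 in KO ASCs (log2 fold change 0.35 ± 0.057). Neither Scaf4 nor Urb1 overlapped between genotypes.

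Of 9 tested chromatin, DNA and cell division genes, 3 rose, none fell and 6 were not called, with log2 fold changes from -0.08 to 0.51 and a median of 0.17. Over all tested genes 20.9% were higher. Hmgn1, a nucleosome-binding protein, was at 486, 500.2 and 533 CPM in WT ASCs and at 764, 703 and 704 in KO ASCs. Its groups lay far apart (1.43-fold, log2 fold change 0.51 ± 0.052, adjusted p = 9.11e-06), and with a mean of 190.9 FPKM it had the second level per length in the segment. Morc3, a chromatin ATPase, was called at 0.17 ± 0.053, and this call was lost without KO ASC replicate 1 (adjusted p = 0.0541), KO ASC replicate 3 (adjusted p = 0.0974) or WT ASC replicate 2 (adjusted p = 0.0812), with the hepatocyte covariate (adjusted p = 0.108), with library totals (adjusted p = 0.116) and with WT ASC replicate 3 alone (adjusted p = 0.0503).

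Chaf1b, a subunit of the histone chaperone CAF-1, was at 105.3, 96.4 and 106.2 CPM in WT ASCs and at 113.4, 110.7 and 113.5 in KO ASCs. The groups did not overlap, but the change of 0.13 ± 0.053 was not called (adjusted p = 0.0604). It was called without WT ASC replicate 3 (adjusted p = 0.0258). Brwd1, a bromodomain protein, was at 102.2, 99.7 and 101.0 CPM in WT ASCs and at 108.5, 106.4 and 106.5 in KO ASCs, again apart and not called (log2 fold change 0.09 ± 0.047, adjusted p = 0.165). Ttc3, a ubiquitin ligase of the protein kinase Akt, overlapped between genotypes, with 140.1, 130.0 and 125.0 CPM in WT ASCs and 140.4, 138.3 and 145.5 in KO ASCs apart by 0.10 ± 0.054 on the log2 scale (adjusted p = 0.146). It was called without WT ASC replicate 1 (adjusted p = 0.0450), with WT ASC replicate 3 alone (adjusted p = 0.0337) and with KO ASC replicate 2 left out as well (adjusted p = 0.00945). Among the 12 genes with the most counts, the change thus ranged from 1.06-fold for Brwd1 to 1.58-fold for Jam2.

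The interferon and cytokine receptors gave 1 rise among 4 tested genes and no fall, with log2 fold changes from 0.03 to 0.41. This share is near the 20.9% called higher over all tested genes. Ifnar1, a subunit of the type I interferon receptor, was at 50.7, 50.4 and 52.2 CPM in WT ASCs and at 61.9, 61.6 and 63.6 in KO ASCs (log2 fold change 0.29 ± 0.049, adjusted p = 4.95e-04). The other 3 were not called. Ifnar2, the other subunit, was at 6.34, 5.55 and 6.18 CPM in WT ASCs and 5.99, 6.31 and 6.13 in KO ASCs, which overlapped (log2 fold change 0.03 ± 0.12, adjusted p = 0.864). Ifngr2, of the interferon gamma receptor, was at 6.95 ± 0.529 CPM (SD, n = 3) in WT ASCs and 7.53 ± 0.648 in KO ASCs, and Il10rb at 0.622 ± 0.241 and 0.815 ± 0.0550, neither passing edgeR's test (adjusted p = 0.438 and 0.351). Whether Ifnar1 and Ifnar2 changed to different degrees was not tested.

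**Figure D4:**
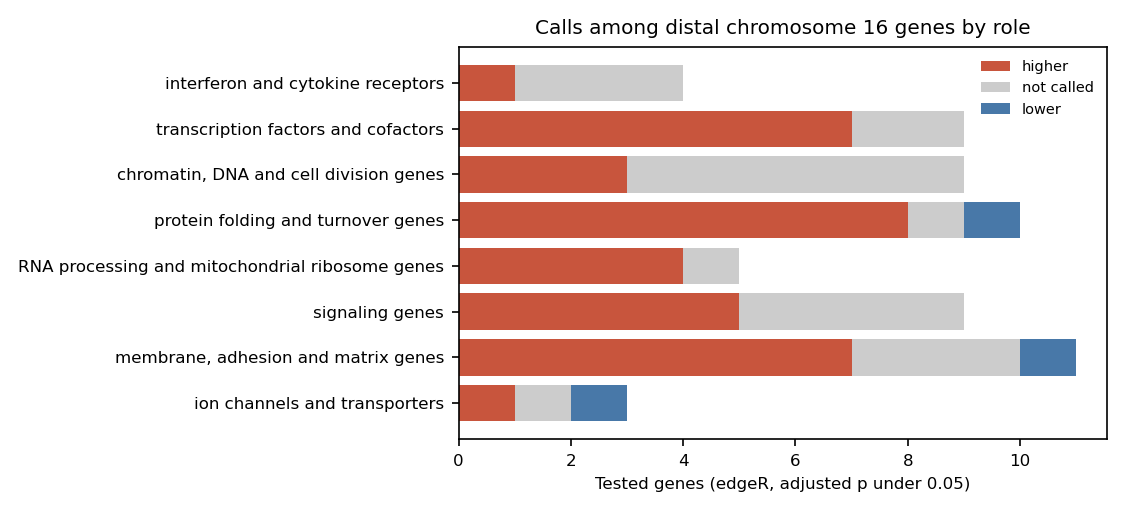
Bars count the tested genes of each role list (horizontal axis) that were called higher (red), not called (grey) or lower (blue) in KO ASCs, for the 60 tested genes that a role list holds. Transcription factors have 7 of 9 higher, protein folding genes 8 of 10, and the interferon and cytokine receptors 1 of 4.

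Outside the role lists there were 10 tested genes, of which 4 rose and 1 fell, against 20.9% and 20.5% of all tested genes. The 4 genes called lower in the segment were Cryzl1, Slc5a3, Dnajc28 and Pigp. Cryzl1, a quinone oxidoreductase-like protein, was at 48.4, 52.0 and 47.5 CPM in WT ASCs and at 34.9, 33.9 and 37.9 in KO ASCs. Its groups were nearly 10 CPM apart, in the direction opposite to most of the segment (log2 fold change -0.47 ± 0.059, adjusted p = 5.36e-05), and it kept its call in each of the 6 fits with 1 library left out. Of its exon bases, 9.80% lie under Gm10785 on the opposite strand. Slc5a3, the sodium and myo-inositol cotransporter, was at 11.4, 14.6 and 9.98 CPM in WT ASCs and at 9.73, 7.99 and 8.22 in KO ASCs. The nearest values differed by under 1 CPM (log2 fold change -0.46 ± 0.13, adjusted p = 0.0137), and the gene shares exon bases with Mrps6 and Gm49711 (together 1.46% of its own).

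Dnajc28, a J-domain protein, was at 4.74, 4.21 and 3.25 CPM in WT ASCs and 3.01, 2.71 and 2.42 in KO ASCs (log2 fold change -0.57 ± 0.18, adjusted p = 0.0223). Pigp, a subunit of the enzyme that starts the glycosylphosphatidylinositol anchor, was at 14.2, 14.6 and 11.9 CPM in WT ASCs and 11.4, 11.0 and 11.4 in KO ASCs (log2 fold change -0.26 ± 0.092, adjusted p = 0.0364). WT ASC replicate 3, which had few hepatocyte transcripts, was the WT value nearest to the KO ASC libraries in Slc5a3, Dnajc28 and Pigp, and 28.2% of the exon bases of Pigp lie over Ttc3 and another gene. These 3 calls were fragile. Only 1 of the 4 falls was called without WT ASC replicate 2, without KO ASC replicate 2 or without KO ASC replicate 3, 2 were called without WT ASC replicate 1, and 3 without KO ASC replicate 1. With the hepatocyte covariate the adjusted p was 0.0989 for Slc5a3, 0.261 for Dnajc28 and 0.323 for Pigp. With WT ASC replicate 3 alone it was 0.320, 0.470 and 0.615, and without KO ASC replicate 2 as well it was 0.485, 0.508 and 0.728.

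Of these, 3 lay close together. Between the starts of Tmem50b and Slc5a3, at chr16:91574503-92058322 (GRCm38), 8 tested genes begin, a stretch chosen after the values were seen. In it Son rose, Dnajc28, Cryzl1 and Slc5a3 fell, and 4 were not called, with a median log2 fold change of -0.04. Over all tested genes 20.9% were called higher and 20.5% lower, and nothing is read from the counts of a stretch chosen in this way. Tmem50b itself, a small membrane protein, was at 15.4 ± 0.603 CPM (SD, n = 3) in WT ASCs and 13.8 ± 0.299 in KO ASCs, with all KO ASC libraries below but without a call (adjusted p = 0.0975, edgeR). With library totals in place of TMM it was called, at a log2 fold change of -0.22 (adjusted p = 0.0307). Son and Cryzl1 changed in opposite directions, at chr16:91647506-91679221 on the plus strand and chr16:91689322-91728975 on the minus strand. Donson, which was not called, lies between them and overlaps the end of Son.

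Along the segment, the 6 genes between 75 and 80 Mb had a median log2 fold change of 0.24, with 5 called higher. The 4 genes between 80 and 85 Mb had a median of 0.32 with 4 called higher, and the 9 between 85 and 90 Mb had 0.46 with 8. The 35 genes between 90 and 95 Mb, where all 4 falls lie, had 0.20 with 14 called higher, and the 16 beyond 95 Mb had 0.30 with 9. Of all tested genes, 20.9% were called higher and 20.5% lower. The bins hold few genes, and differences between them were not tested. At the position that bounds the segment, the 3 tested genes just inside were Hspa13 at 0.16 ± 0.060, Nrip1 at 0.25 ± 0.070 and Usp25 at 0.37 ± 0.080 on the log2 fold change scale. The Hspa13 call was at the threshold (adjusted p = 0.0491), and among the alternatives that lost it were DESeq2 (adjusted p = 0.112), limma-voom (adjusted p = 0.0572) and library totals (adjusted p = 0.209). The 3 just outside were Gbe1 at 0.59 ± 0.13, Robo1 at 0.07 ± 0.070 and Robo2 at 0.25 ± 0.17. The values on the 2 sides of the boundary ranged over each other.

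The rest of chromosome 16 was shifted too. Of 345 tested protein-coding genes there, 168 (48.7%) were called higher and 31 lower. The log2 fold change had a median of 0.20 and was above 0 for 74.5% of the genes. Among genes with at least 10 CPM the median was 0.22 in the rest of the chromosome (242 genes) and 0.23 in the distal segment (52 genes). Medians over the successive 15 Mb stretches from the start of the chromosome were 0.22, 0.20, 0.12, 0.20 and 0.38, the last with 11 genes. Per library, the median deviation in the rest of the chromosome was 0.20, 0.19 and 0.22 in the KO ASC replicates. The difference between the segment and the rest of its chromosome was not tested, and the shift is not particular to the segment in these values.

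On the other 19 chromosomes of the table, the median of the protein-coding genes ran from -0.06 to 0.03 on the log2 scale. The share called higher ran from 15.3% to 28.0%, and the share of genes above 0 from 43.3% to 53.3%. Both parts of chromosome 16 lay outside all 3 ranges. Per library, the median deviation of protein-coding genes off chromosome 16 was 0.0054, -0.0012 and 0.00041 in the KO ASC replicates.

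**Figure D5:**
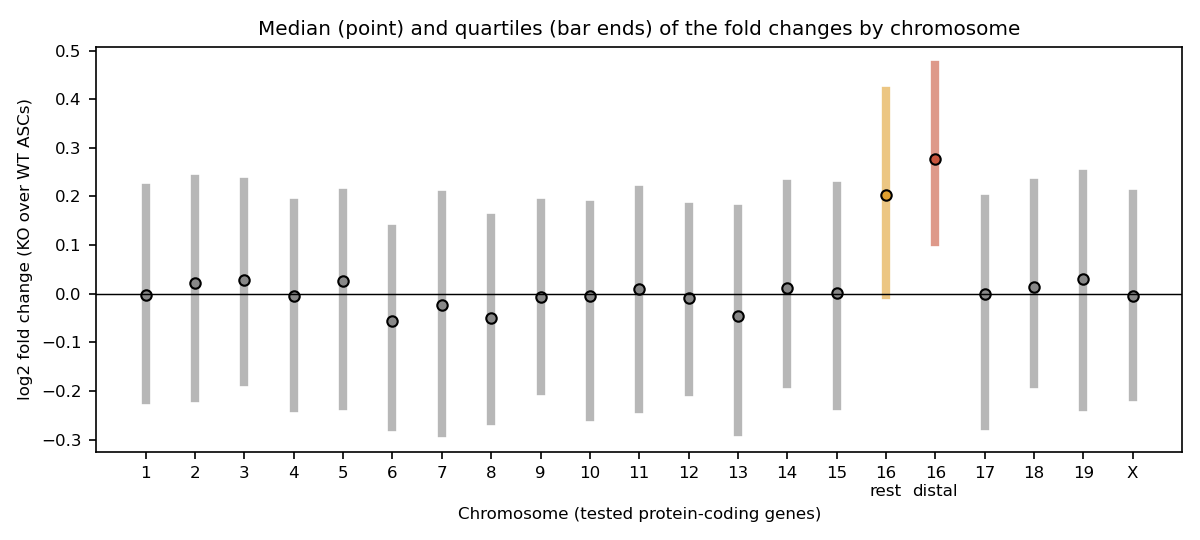
Points are medians and bars the range between quartiles of the log2 fold changes (vertical axis, KO over WT ASCs) of tested protein-coding genes per chromosome, with chromosome 16 divided into the distal segment (red, 70 genes, median 0.28) and the rest (yellow, 345 genes, median 0.20). The medians of the other 19 chromosomes lie between -0.06 and 0.03.

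Human chromosome 21 has further counterparts on mouse chromosomes 10 and 17. Of 29 tested counterparts on chromosome 10, 9 were called higher and 5 lower, and the log2 fold changes had a median of 0.08. Of 14 on chromosome 17, 4 were called higher and 4 lower, and the median was -0.05. Over all tested genes 20.9% were called higher and 20.5% lower, and the difference of these short lists from those shares was not tested. Noncoding genes of the distal segment were few. Of 19 tested genes there that do not code for protein, which include pseudogenes and an rRNA gene, 2 were called higher and 3 lower, with a median of -0.06. The 12 that are long noncoding or unconfirmed transcripts had 2 called higher, 3 lower and a median of -0.53. Most of these genes had low counts, and the difference from the coding genes was not tested.

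The products of Rcan1 and Dyrk1a act on calcineurin and its target NFAT. Of 9 tested calcineurin and NFAT genes outside the segment, 3 rose (Ppp3r1, Nfatc2 and Nfatc1) and 3 fell (Nfat5, Ppp3ca and Nfatc4), with a median log2 fold change of -0.12, where 20.9% of all tested genes were called higher and 20.5% lower. Ppp3ca, a catalytic subunit of calcineurin, was at 34.7 ± 0.808 CPM in WT ASCs and 27.2 ± 0.521 in KO ASCs (SD, n = 3; log2 fold change -0.35 ± 0.055). Nfatc2, an NFAT factor, was at 7.72 ± 1.01 and 11.1 ± 0.884 CPM (log2 fold change 0.52 ± 0.11).

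Of 16 tested genes of interferon signaling and response outside the segment, 1 rose (Ddx58) and 3 fell (Jak1, Stat2 and Oas1a), with a median of 0.07. Over all tested genes 20.9% were higher and 20.5% lower, so the list holds no more calls than the table as a whole. Stat2, which relays the signal of the type I receptor, was at 37.3 ± 1.82 CPM in WT ASCs and 22.1 ± 0.369 in KO ASCs (SD, n = 3; log2 fold change -0.76 ± 0.060). Ddx58, a sensor of viral RNA, was at 84.98 ± 3.54 and 129.8 ± 1.93 CPM (log2 fold change 0.61 ± 0.051). Ifnar1 rose in the segment, and Stat2 fell outside it.

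Partners of segment genes in protein complexes, and other genes of proteasome assembly, were also counted. The shares over all tested genes were 20.9% called higher and 20.5% lower. Of the other 7 tested subunits of the cytosolic chaperonin, 2 rose (Cct3 and Cct6a) and none fell, with a median of 0.06 on the log2 fold change scale against 0.21 for Cct8. Cct6a was at 590.3 ± 27.9 CPM in WT ASCs and 683.7 ± 6.12 in KO ASCs (SD, n = 3), a log2 fold change of 0.21 ± 0.047. Of 7 tested genes of CAF-1, GA-binding protein and proteasome assembly outside the segment, 3 rose (Chaf1a, Gabpb2 and Psmg4) and 1 fell (Psmg2), with a median of 0.04. Chaf1a, the largest subunit of CAF-1, was at 109.2 ± 5.59 and 129.1 ± 5.19 CPM in WT and KO ASCs (SD, n = 3; log2 fold change 0.24 ± 0.055). Whether these genes and the segment genes differed in their change was not tested.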

How the data were processed

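RNA-seq of 3 WT and 3 KO ASC libraries was analysed. By the study's methods and the submitters' processing notes, reads cleaned of adaptors and poor bases were mapped to GRCm38 with HISAT2 2.0.5 and counted per gene with FeatureCounts. The authors deposited raw counts for 54715 genes. The annotation release, the strand setting and the treatment of multiply mapping reads are not given in the sources used here. Overlapping genes on opposite strands can therefore share reads, and 24 of the 70 tested genes have at least 1% of their exon bases under another gene (GENCODE M21, where all 70 have the listed position).

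Genes with at least 10 counts in at least 3 libraries (16870) were fitted with edgeR 4.0.16 in R 4.3.3 (TMM, glmQLFit and glmQLFTest, genotype only, Benjamini-Hochberg, threshold 0.05). CPM are normalized with TMM factors, except those of cell type markers, which use library totals. FPKM were computed from the listed lengths. An SE of a log2 fold change is its size divided by the square root of the F statistic. The depth of 18927748 to 28333541 counts sets a floor of 3 counts at 0.106 to 0.158 CPM. The fit was also run on simulated counts with few changed genes and no shifted chromosome, unlike these data, and no statement here rests on that run. Promoters came from RefSeq (GRCm38.p6).

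Genes named with values are the targeted gene, the 12 of highest mean CPM, up to 10 largest rises and 8 largest falls that were called without overlap, the 3 tested genes on each side of base 75000000, and a list of 22 genes. The segment, the lists and these rules were chosen with earlier results of these data known. Tmem50b, and the genes outside the segment, which are called members of their lists, were named after their values were seen. Alternatives were DESeq2 1.42.0, limma-voom (limma 3.58.1), other scalings, filters and boundaries, a test against a fold change of 1.2, a replicate block and each library left out. A hepatocyte covariate and WT ASC replicate 3 alone, against all KO ASC replicates or without KO ASC replicate 2, were added after the data were seen.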

Additional observations from a re-analysis of the deposited data

How the results depend on the processing

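The number of segment genes called higher, 40 in the fit as reported, stayed between 33 and 44 under the other settings that ask for any change, and the median log2 fold change stayed above 0 in every setting that gave it. Against a fold change of 1.2, 19 genes were called higher and 1 lower. The count of 4 lower genes became 5 with library totals, which added Tmem50b, 2 with the hepatocyte covariate and 1 with WT ASC replicate 3 alone, with or without KO ASC replicate 2, and ran from 1 to 4 with each library left out. The median of 0.28 became 0.22 with library totals (0.2191, where the median of all genes moved by -0.0575) and with a mean count of at least 50 (0.2215), 0.23 for genes of at least 10 CPM and with the covariate (0.2343), and 0.2409 with WT ASC replicate 3 alone (0.2414 without KO ASC replicate 2 as well), and ran from 0.2356 to 0.2724 with each library left out. The mean over KO ASC libraries of the per-library level was 0.24 with the median over genes and 0.2833 with the mean. The cause of these shifts was not tested. Of 38 named genes of the segment, 36 were fitted in all 19 alternatives and 16 of these had the same call in each, and no call reversed. Dscam and Il10rb had too few counts for the stricter filter and had the same call in the others. Same-numbered libraries deviated together with correlations of -0.158, 0.0465 and 0.209, so the numbers were not taken as pairs. With the replicate block 39 genes were called higher and 3 lower, with a median of 0.2769, and Hspa13 (adjusted p = 0.0921) and Pigp (adjusted p = 0.0507) lost their calls. For the 73 genes below the filter, of which 45 had no read, limited depth and lack of expression were not told apart. The 18 tested genes below 10 CPM carry large errors.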
